A study of Homo sapiens with 12 samples.

Results

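CCD-18Co cells, a line of human colon myofibroblasts, were given 100 nM 1α,25-dihydroxyvitamin D3 (1,25(OH)2D3), the active form of vitamin D, or vehicle for 24 h, and their gene expression was compared to learn which genes the hormone changed without a second agent. The comparison used 6 of the 12 RNA-sequencing libraries of the series, chosen by their labels: 3 libraries of vehicle and 3 of 1,25(OH)2D3, with 1 of each from experiments 1, 2 and 3. The vehicle was ethanol for 1,25(OH)2D3 and 0.1% BSA in PBS for Wnt3A, the second agent of the study. The other 6 libraries came from cells given 100 ng/ml recombinant human Wnt3A, alone or with 1,25(OH)2D3, for the same time. CCD-18Co is 1 established line from normal colon, and the 3 experiments were repeats in that line, so the errors given here describe repeat cultures and not different people.

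1,25(OH)2D3 acts by binding the vitamin D receptor (VDR), a nuclear receptor that pairs with the retinoid X receptor and binds DNA near its target genes. Its best known target is *CYP24A1*, whose enzyme breaks down the hormone itself. In the intestinal wall, myofibroblasts lie under the epithelium, build the extracellular matrix and send growth factor, Wnt and BMP signals to the epithelial stem cells.

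The values were read equivalents, that is, deposited aligned bases divided by the read length of 40 bases. Totals were 5782473 to 6191675 per vehicle library and 5459627 to 5918491 per 1,25(OH)2D3 library, and levels are given below as CPM, the read equivalents of a gene scaled to a common library total. Of 21893 genes in the table, 12216 had enough reads to be tested. The label of the cells was checked against marker genes. Of 10 markers of epithelium, 6 were at 0 in all 6 libraries, *CDH1* and *VIL1* among them, and the summed level of the 10 was 26.1 to 32.4 CPM, nearly all of it *KRT18*. The 13 markers of fibroblasts and myofibroblasts summed to 24800 to 28600 CPM with vehicle and 27400 to 28200 CPM with 1,25(OH)2D3, with 3 called higher and 3 called lower. Among them *DES*, the desmin of mature muscle, had 1 read over the 6 libraries, and *ACTA2*, smooth muscle actin and the usual marker of myofibroblasts, was present at 195, 108 and 129 CPM with vehicle and 168, 118 and 133 CPM with 1,25(OH)2D3. Of 7 leukocyte markers, only the lysosomal *CD68* was above 2 CPM in any library. The 5 endothelial markers summed to 13.3 to 29 CPM with vehicle and 13.5 to 19.5 CPM with 1,25(OH)2D3, and the endothelial cadherin *CDH5* reached 3.68 CPM in 1 vehicle library but at most 0.377 CPM in a treated one. Their part in the results was not tested. The use of strand in counting is not given in the sources used here, so reads of genes with overlapping exons could not be separated. Among the genes named here this holds for *ACTA2*, *ANO1*, *CCND1*, *CD68*, *CYP3A7*, *DKK1*, *DUSP6*, *F11R*, *FOXD1*, *FZD4*, *GAPDH*, *IER3*, *IL24*, *IRF1*, *KRT18*, *NBL1*, *NR4A1*, *PAPPA*, *RGMB*, *SMPD3*, *SQSTM1*, *TGFB2*, *TUBB3* and *VIM*, each with at least 10% of its exon bases in another gene.

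1,25(OH)2D3 changed the expression of 2959 genes, 24.2% of those tested, at an adjusted p under 0.05. Of these, 1594 genes (13%) were higher and 1365 (11.2%) were lower than with vehicle. Most changes were small. The median fold was 1.30 among the higher genes and 1.23 among the lower genes, and 1164 and 1175 of them, respectively, changed by less than 1.5-fold. Large changes were mainly rises: 148 genes rose and 40 fell by at least 2-fold, 30 rose and 1 (*IL24*, an interleukin) fell by at least 4-fold, and 8 rose by at least 8-fold. The genes called higher took 16.2% to 17.05% of all CPM in the vehicle libraries and 21.8% to 22.2% in the 1,25(OH)2D3 libraries. Those called lower took 22.9% to 24.0% with vehicle and 18.8% to 19.3% with 1,25(OH)2D3. The sign of the change was the same in all 3 experiments for 1554 of the higher and 1310 of the lower genes, and for 1325 and 1064 genes the values of the 2 groups did not overlap. These genes were called on the same values, and the counts were not taken over all tested genes. They are therefore no separate measure of agreement. The fall of *IL24* rests on a few reads, with a log2 fold change of -2.07 and of -1.44 without experiment 3. The median log2 fold change of all tested genes was 0.0016. Where the 6 values of a gene are given below, those of the 2 groups did not overlap unless overlap is stated. The test was edgeR's quasi-likelihood F test with the experiment as a block, over all 12 libraries. Without the block 1791 genes were called (1043 higher and 748 lower, 1790 of them among the 2959), and without the 4 libraries of experiment 2 the count was 1822. Counts of members of gene lists are given below with the counts without the block. For every list the background is the share of all tested genes called with the block, 13% higher and 11.2% lower. Folds refer to CPM, a share of each library, so that fewer cells of a kind and less RNA per cell could not be told apart.

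**Figure D1:**
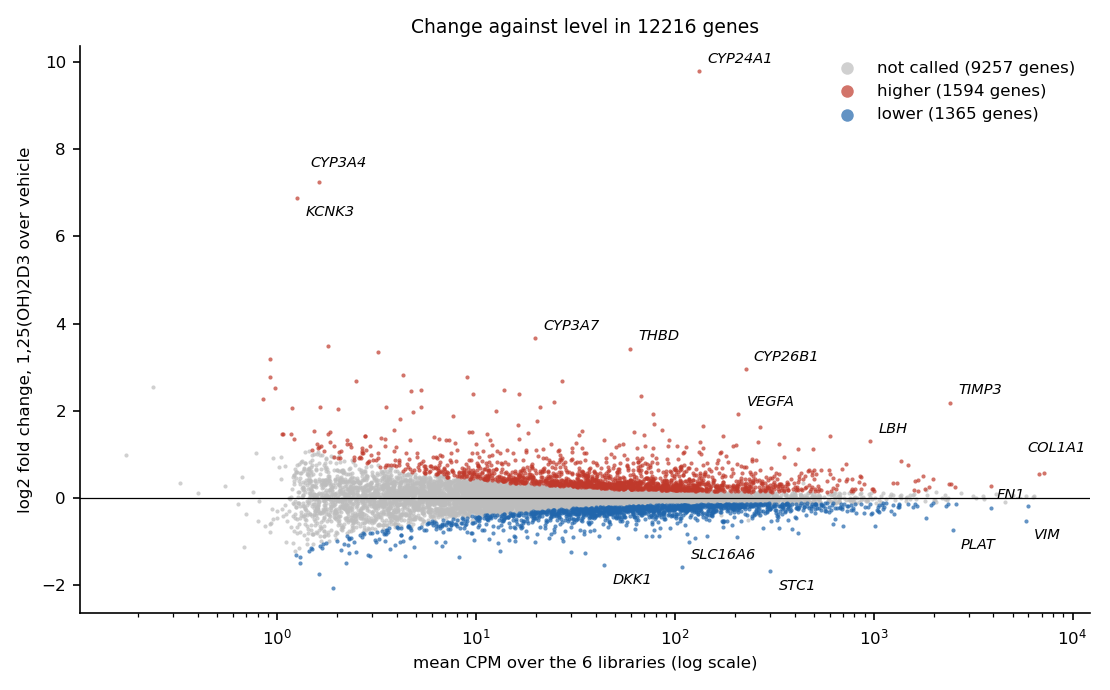
Log2 fold change with 1,25(OH)2D3 over vehicle (vertical axis) against the mean CPM over the 6 libraries (horizontal axis, log scale) for 12216 tested genes, with 1594 called higher in red, 1365 called lower in blue and the others in grey. Rises reach further than falls, from *CYP24A1* at a log2 fold change of 9.79 to *IL24* at -2.07, and the fitted positions of *CYP3A4* and *KCNK3*, which had no read with vehicle, depend on the prior count.

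The change that exceeded all others was that of *CYP24A1*, the 24-hydroxylase that inactivates 1,25(OH)2D3. Its level was 0, 0.48 and 0.333 CPM with vehicle and 208, 301 and 279.7 CPM with 1,25(OH)2D3. Only 5 reads were found over the 3 vehicle libraries, against 4337 over the 3 libraries of treated cells (log2 fold change 9.79 ± 0.16, adjusted p = 1.42e-46; here and below, ± after a log2 fold change is its standard error). *VDR*, the receptor, was higher as well, at 101, 108 and 102 CPM with vehicle and 135, 135 and 138 CPM with 1,25(OH)2D3. The groups did not overlap and the rise was 1.31-fold (log2 fold change 0.39 ± 0.059, adjusted p = 4.54e-07). *RXRA*, the partner of the receptor, stood at 55.8 ± 6.28 CPM with vehicle and 55.4 ± 1.35 CPM with 1,25(OH)2D3 (SD, n = 3), and the difference did not pass the test (log2 fold change -0.012 ± 0.076, adjusted p = 0.94). Of 14 tested genes for the receptor, its cofactors and the metabolism of vitamin D, 4 were higher and none was lower. The shares of all tested genes were 13% and 11.2%, and the median log2 fold change of the list was 0.043. The number higher was 2 without the block, and 2 when the first vehicle library, the first treated library or experiment 1 was left out.

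A second group of strongly changed genes was the *CYP3A* family on chromosome 7, which encodes drug and steroid hydroxylases of liver and intestine that also act on vitamin D compounds. In *CYP3A4* no read was found with vehicle and 20, 21 and 13 reads were found in the 3 libraries with 1,25(OH)2D3. Against a floor of 3 reads over the vehicle group this is at least 19.6-fold higher (adjusted p = 8.16e-10). *CYP3A5* was read at 24.5, 21.9 and 21.3 CPM with vehicle and 119.9, 118 and 101 CPM with 1,25(OH)2D3. It rose 5.01-fold without overlap (log2 fold change 2.33 ± 0.084, adjusted p = 7.36e-30). *CYP3A7*, known as the foetal form, had 2.61, 2.88 and 3.16 CPM with vehicle and 33.3, 39.2 and 37.3 CPM with 1,25(OH)2D3. All 3 treated libraries lay far above all 3 of vehicle, and the rise was 12.6-fold (log2 fold change 3.66 ± 0.15, adjusted p = 7.1e-27). The fourth member, *CYP3A43*, had 0 reads in all 6 libraries. The 4 genes are close copies of each other, so reads could have been assigned to the wrong member.

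Because these members moved together, the 200 bases before the start site of each are shown, from RefSeq promoters on GRCh38.p14, 5′ to 3′ on the strand of the gene. Capitals mark the hexamers TGAACT and AGGTCA and their reverse complements. The CYP3A4 stretch is chr7:99784185-99784384 (minus strand), the CYP3A5 stretch chr7:99679997-99680196 (minus strand), the CYP3A7 stretch chr7:99735197-99735396 (minus strand) and the CYP3A43 stretch chr7:99827813-99828012 (plus strand).
CYP3A4: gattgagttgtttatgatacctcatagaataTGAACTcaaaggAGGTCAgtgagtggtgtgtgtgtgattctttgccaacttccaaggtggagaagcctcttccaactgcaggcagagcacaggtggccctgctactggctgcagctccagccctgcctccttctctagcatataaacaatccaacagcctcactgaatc
CYP3A5: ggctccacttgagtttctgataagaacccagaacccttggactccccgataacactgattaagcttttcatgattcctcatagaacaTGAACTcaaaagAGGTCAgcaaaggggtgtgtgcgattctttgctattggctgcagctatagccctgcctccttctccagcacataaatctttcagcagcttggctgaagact
CYP3A7: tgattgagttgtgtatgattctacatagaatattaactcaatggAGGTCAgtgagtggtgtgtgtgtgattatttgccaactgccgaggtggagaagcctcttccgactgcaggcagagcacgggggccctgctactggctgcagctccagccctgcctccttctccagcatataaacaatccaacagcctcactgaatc
CYP3A43: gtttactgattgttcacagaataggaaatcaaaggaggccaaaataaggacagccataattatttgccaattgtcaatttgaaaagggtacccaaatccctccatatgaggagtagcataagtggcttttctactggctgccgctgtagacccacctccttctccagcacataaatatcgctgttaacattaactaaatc

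In *CYP3A4* and *CYP3A5* the hexamers stand as an everted repeat with 6 bases between them, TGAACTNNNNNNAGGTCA, an arrangement known to be bound by VDR and by the pregnane X receptor in *CYP3A4*. The repeat begins 169 bases before the start site of *CYP3A4* and 113 bases before that of *CYP3A5*. In *CYP3A7* only the AGGTCA hexamer was matched, and in *CYP3A43* neither. The search took exact letters. In *CYP3A7* the bases in the place of TGAACT, also 6 bases before AGGTCA, read TTAACT, with T for G. Searched on both strands, the repeat was found in 3 of 35116 promoters of 300 bases (250 before and 50 after the start), a share of 0.00854%, and the third was *ITGB1BP2*, which was not tested here. Promoters of 9866 of the 12216 tested genes were in that table, and those of *CYP24A1* and *THBD* were not searched. Another arrangement known for VDR is a direct repeat of 2 hexamers with 3 bases between them, searched here on either strand as any pair of the 8 hexamers that read AGGTCA or AGTTCA, with A or G as their first base and C or G before the last. It was found in 13 of the 9866 promoters (0.132%), in 3 of the 1285 of genes called higher (0.233%), in 2 of the 1115 of genes called lower (0.179%) and in 8 of the 7466 of genes not called (0.107%). Of the 148 genes that rose at least 2-fold, 103 had a promoter in the table, and none of these held it. A match or its absence in these windows is a description of the letters and says nothing of binding.

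Several other enzymes of retinoid and steroid metabolism rose. *CYP26B1*, which degrades retinoic acid, had 51.3, 58.2 and 45.9 CPM with vehicle and 377, 445 and 383 CPM with 1,25(OH)2D3. The groups lay far apart and the rise was 7.75-fold (log2 fold change 2.95 ± 0.063, adjusted p = 8.76e-41). *RDH10*, which carries out the first step from retinol towards retinoic acid, had 311, 310.1 and 368 CPM with vehicle and 813, 843 and 978 CPM with 1,25(OH)2D3 and rose 2.66-fold (log2 fold change 1.41 ± 0.049, adjusted p = 1.7e-30). *CYP1A1*, a hydroxylase of polycyclic hydrocarbons, increased from a low level, 2.09, 5.12 and 2.16 CPM with vehicle and 14.7, 20.3 and 13.8 CPM with 1,25(OH)2D3 (log2 fold change 2.37 ± 0.19, adjusted p = 4.84e-15). *CYP19A1*, the aromatase that makes oestrogens, had 10 reads with vehicle and 97 with 1,25(OH)2D3, each summed over 3 libraries (log2 fold change 3.35). The value was 4.10 without the first vehicle library and 4.03 without experiment 1. *AKR1C1*, an aldo-keto reductase that inactivates progesterone, rose 1.99-fold (log2 fold change 0.99 ± 0.082, adjusted p = 9.87e-15). Of 33 tested enzymes of this list, 12 were higher and 2 lower, with a median log2 fold change of 0.24 (8 and 2 without the block).

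Among 26 tested genes known as VDR targets in other cell types, 14 were higher and 2 lower (14 and 1 without the block, with 1 lower without the third vehicle library), with a median of 0.42. The share of higher genes, 14 of 26, stands against 13% of all tested genes. This list holds genes that were already known to change in these libraries, so its count is not independent evidence of direction. *THBD*, thrombomodulin, an anticoagulant protein of the cell surface, was read at 9.91, 13 and 7.65 CPM with vehicle and 110.5, 109 and 108 CPM with 1,25(OH)2D3. The 3 treated libraries agreed closely and none overlapped with vehicle, with a rise of 10.7-fold (log2 fold change 3.42 ± 0.10, adjusted p = 2.35e-34). *TMEM37*, a regulator of calcium channels, had 4.17, 5.6 and 2.83 CPM with vehicle and 18.6, 28.3 and 23 CPM with 1,25(OH)2D3 (log2 fold change 2.47 ± 0.17, adjusted p = 3.47e-18). *IGFBP3*, which binds insulin-like growth factors outside the cell, had 164, 138 and 94.5 CPM with vehicle and 449.6, 430.5 and 328 CPM with 1,25(OH)2D3. The third experiment was the lowest in both groups, yet every treated library was above every vehicle library, with a rise of 3.07-fold (log2 fold change 1.62 ± 0.065, adjusted p = 6.71e-23). *SLC1A1*, a glutamate transporter, had 50.4, 54.4 and 55.6 CPM with vehicle and 134, 133 and 134 CPM with 1,25(OH)2D3, a rise of 2.5-fold with hardly any spread among the treated libraries (log2 fold change 1.32 ± 0.068, adjusted p = 7.45e-23). *CD14*, a co-receptor for bacterial lipopolysaccharide, rose 1.77-fold (log2 fold change 0.82 ± 0.14, adjusted p = 6.84e-06). In the opposite direction, *CDKN1A*, the cell cycle inhibitor p21, was lower (log2 fold change -0.21, adjusted p = 0.000457).

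The rest of the 15 largest rises joined genes of unlike function. *SMPD3*, a neutral sphingomyelinase that makes ceramide, had 5.04, 7.84 and 8.98 CPM with vehicle and 33.3, 48.9 and 57.7 CPM with 1,25(OH)2D3 (log2 fold change 2.67 ± 0.12, adjusted p = 2.24e-25). *KRT4*, a keratin of stratified epithelium, had 1.22, 2.08 and 1.5 CPM with vehicle and 8.02, 10.3 and 8.67 CPM with 1,25(OH)2D3 (log2 fold change 2.47 ± 0.25, adjusted p = 6.67e-12). *FER1L6*, a member of the ferlin family of membrane proteins, had 7.65, 8.8 and 7.32 CPM with vehicle and 42, 33.4 and 26.2 CPM with 1,25(OH)2D3 (log2 fold change 2.09 ± 0.13, adjusted p = 2.56e-19). In each of the 3 genes the groups were apart in all libraries. *FAM105A*, now named OTULINL, rose 4.56-fold (log2 fold change 2.19 ± 0.13, adjusted p = 1.78e-20). *GPR133*, the adhesion receptor now named ADGRD1, rose 4.27-fold (log2 fold change 2.09 ± 0.26, adjusted p = 3.8e-09). A pair of genes had no read at all with vehicle. *KCNK3*, a potassium leak channel, had 17, 14 and 11 reads with 1,25(OH)2D3, which is at least 15.2-fold higher against the floor of 3 reads (adjusted p = 3.26e-08). *EVPL*, envoplakin of the cornified envelope, had 7, 20 and 15 reads with 1,25(OH)2D3, also at least 15.2-fold higher, but was too low to be tested.

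**Figure D2:**
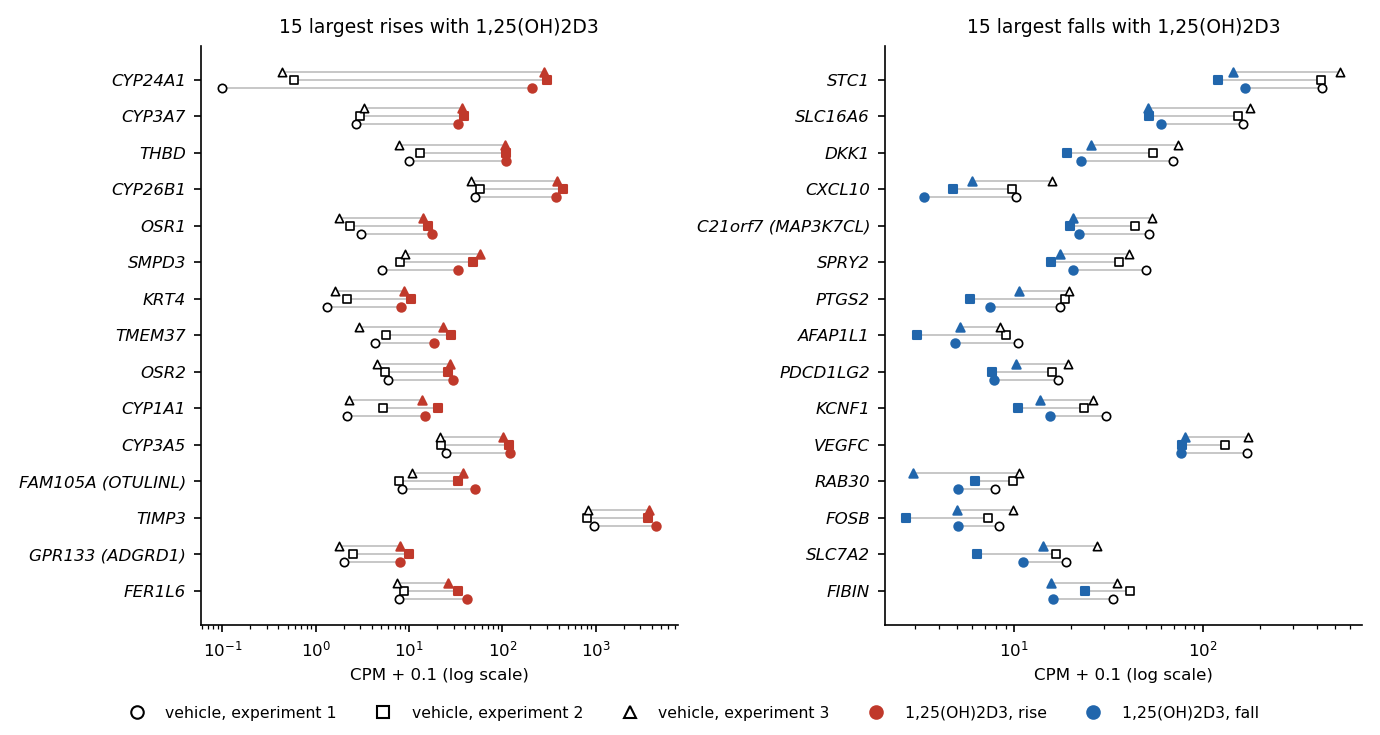
CPM of each library (horizontal axis, CPM + 0.1, log scale) for the 15 largest rises (left) and the 15 largest falls (right) among genes that passed the test with a mean not under 5 CPM, with vehicle as open symbols, 1,25(OH)2D3 as filled symbols and the 3 experiments as circles, squares and triangles joined within an experiment. The same direction in all 3 experiments was a condition for choosing these 30 genes. They run from *CYP24A1* at the top left to *FIBIN* at the bottom right.

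Calls among transcription factors of mesenchyme and development were mostly rises. Of 42 tested, 17 were higher and 1 was lower, against 13% and 11.2% of all tested genes (15 and 1 without the block, with 2 lower when the third vehicle library or experiment 3 was left out), with a median log2 fold change of 0.23. The odd-skipped pair rose most. *OSR1*, needed for kidney and heart development in the mouse, had 2.96, 2.24 and 1.66 CPM with vehicle and 17.4, 15.7 and 14.1 CPM with 1,25(OH)2D3 (log2 fold change 2.78 ± 0.20, adjusted p = 8.1e-17). Its relative *OSR2*, which acts in palate and limb development in the mouse, had 5.91, 5.44 and 4.49 CPM with vehicle and 29.5, 26 and 27.3 CPM with 1,25(OH)2D3 (log2 fold change 2.38 ± 0.15, adjusted p = 1.86e-19). *SOX6*, a factor of cartilage and muscle development, was 2.21-fold higher, at 48.3 ± 3.59 CPM with vehicle and 107 ± 9.23 CPM with 1,25(OH)2D3 (SD, n = 3). The 1 member that fell was *FOXD1*, a forkhead factor of stromal progenitors in the kidney, at 21.9, 17.3 and 22 CPM with vehicle and 10.9, 9.6 and 12.2 CPM with 1,25(OH)2D3 (log2 fold change -0.90 ± 0.13, adjusted p = 3.77e-07). In a separate list of 23 tested nuclear receptors, 4 were higher and 1 was lower (1 and 1 without the block). The number higher was 1 to 4 with a library or experiment left out, and the median of the list was 0.063. In that list *NR4A1*, an immediate early orphan nuclear receptor, fell by 0.69 on the log2 scale (adjusted p = 9.86e-05).

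Calls among immediate early factors were mostly falls. Of 35 tested Kruppel-like, AP-1 and related factors, 9 were lower and 4 higher, against 11.2% and 13% of all tested genes (7 and 3 without the block, with 2 higher when the second or the third treated library or experiment 1 or 2 was left out), with a median of -0.12. *FOSB*, a partner in AP-1, had 8.17, 7.2 and 9.81 CPM with vehicle and 4.95, 2.59 and 4.9 CPM with 1,25(OH)2D3 (log2 fold change -1.01 ± 0.21, adjusted p = 0.000135). *IER3*, an early response gene linked to survival, fell by 0.84 on the log2 scale and *KLF6*, a Kruppel-like factor, by 0.53. *FOSL2*, another AP-1 subunit, rose 1.75-fold (log2 fold change 0.81 ± 0.073, adjusted p = 1.99e-13). Members of 1 family thus did not share a direction.

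In CPM, matrix genes were among the largest gains. *TIMP3*, an inhibitor of metalloproteinases bound to the matrix, had 957, 816 and 835 CPM with vehicle and 4449.9, 3676 and 3719.6 CPM with 1,25(OH)2D3. It gained more CPM than any other gene, a rise of 4.54-fold with the treated libraries all above those of vehicle (log2 fold change 2.18 ± 0.044, adjusted p = 6.7e-42). *COL1A1*, the main chain of type I collagen, had 6327, 5716 and 5363 CPM with vehicle and 7950.5, 8557 and 9189.8 CPM with 1,25(OH)2D3 (log2 fold change 0.57 ± 0.062, adjusted p = 6.43e-07). *FN1*, fibronectin, had 4794, 5628 and 6036 CPM with vehicle and 7498, 7949.6 and 8628 CPM with 1,25(OH)2D3 (log2 fold change 0.55 ± 0.044, adjusted p = 1.86e-15). *LAMB1*, a laminin chain of basement membranes, had 1422, 1458 and 1516 CPM with vehicle and 2006, 2109 and 2139.6 CPM with 1,25(OH)2D3 (log2 fold change 0.51 ± 0.043, adjusted p = 2.01e-14). These 3 genes were thus higher in each treated library than in any vehicle library. *COL1A2*, the partner chain of type I collagen, overlapped between the groups at 6623, 6272 and 5919.5 CPM with vehicle and 6286, 6252 and 6443 CPM with 1,25(OH)2D3 and did not pass the test (log2 fold change 0.015 ± 0.042, adjusted p = 0.844). *KIAA1199*, now named CEMIP and needed for hyaluronan breakdown, rose 1.78-fold (log2 fold change 0.83 ± 0.048, adjusted p = 1.03e-20). *COL12A1*, a collagen that associates with fibrils, overlapped between the groups at 3068, 3459.9 and 4110.4 CPM with vehicle and 4118, 3742 and 4885 CPM with 1,25(OH)2D3, and its call (log2 fold change 0.26 ± 0.05, adjusted p = 7.45e-05) was lost without the block (adjusted p = 0.0997).

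The collagen list held 6 higher and 2 lower members of 24 tested (5 and 2 without the block, with 1 lower without experiment 2), with a median of 0.026. *COL3A1*, the chain of type III collagen, rose 1.34-fold (log2 fold change 0.42 ± 0.045, adjusted p = 4.34e-11), and *COL14A1*, which organises fibrils, rose 1.56-fold. *COL13A1*, a membrane collagen, fell by 0.47 on the log2 scale. Among 46 glycoproteins and proteoglycans, 15 were higher and 6 lower (13 and 4 without the block), with a median of 0.054. Besides fibronectin and laminins, *SPP1*, osteopontin, was higher at 3.13, 6.72 and 3.16 CPM with vehicle and 7.51, 10.3 and 6.97 CPM with 1,25(OH)2D3 (log2 fold change 0.93 ± 0.21, adjusted p = 0.000435). *NOV*, a matricellular CCN protein, was lower (log2 fold change -0.60), as was *SPARC*, a collagen-binding glycoprotein, at 4599, 3923 and 4146 CPM with vehicle and 3759, 3367 and 3542 CPM with 1,25(OH)2D3 (log2 fold change -0.25 ± 0.04, adjusted p = 2.17e-06). Of 31 metalloproteinases and inhibitors, 6 were higher and 4 lower (4 and 2 without the block, with 2 lower when the second library of either group or experiment 2 was left out). *ADAM12*, a membrane metalloproteinase, rose 2.06-fold and *MMP14*, the membrane collagenase, fell by 0.32 on the log2 scale (adjusted p = 4.45e-08).

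Members of plasminogen activation and clotting were among the falls. *PLAT*, tissue plasminogen activator, was among the most abundant losses at 3210.3, 2789 and 3360.4 CPM with vehicle and 1876, 1639.6 and 2072 CPM with 1,25(OH)2D3 (log2 fold change -0.75 ± 0.041, adjusted p = 1.38e-21). *PLAUR*, the urokinase receptor, fell by 0.36 on the log2 scale (adjusted p = 2.46e-06) and *TFPI*, an inhibitor of tissue factor, by 0.33 (adjusted p = 1.66e-06). Of 21 tested members of the list, which also holds coagulation and thrombin receptor genes, 7 were lower and 4 higher (4 and 3 without the block, with 2 higher without experiment 2). The shares of all tested genes were 11.2% and 13%, and the median of the list was -0.011. The largest change in the list was a rise, that of *THBD* described above (log2 fold change 3.42).

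**Figure D3:**
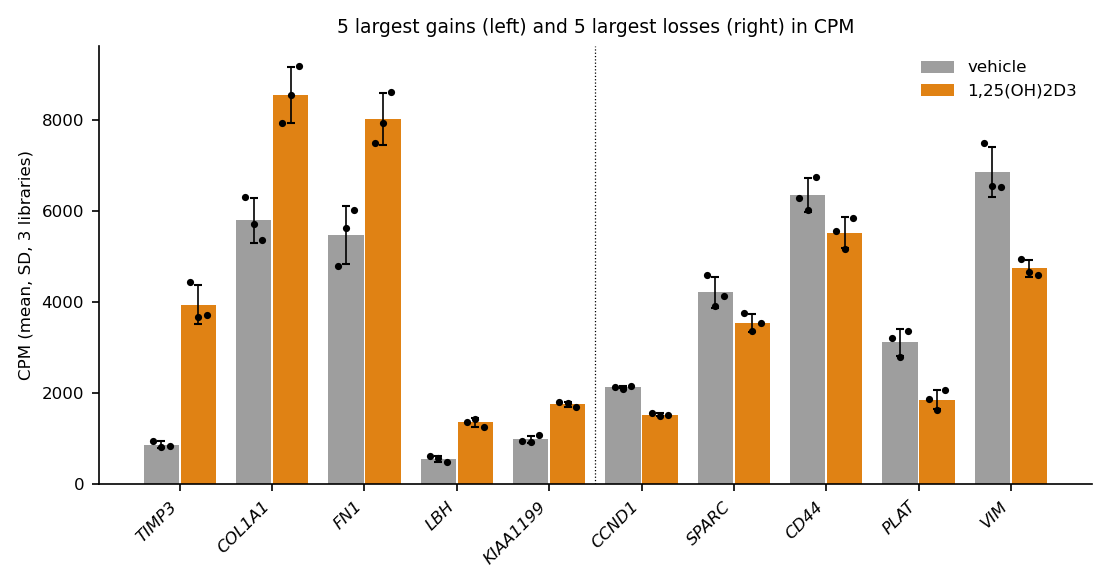
CPM with vehicle (grey) and 1,25(OH)2D3 (orange) for the 5 called genes with the largest gain and the 5 with the largest loss in CPM, as the mean of 3 libraries with its SD and each library as a point. *TIMP3*, *COL1A1* and *FN1* lead the gains and *VIM*, *PLAT* and *CD44* the losses, and in none of the 10 genes do the points of the 2 groups overlap.

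Cytoskeletal genes were called in both directions. Of 22 tested genes for intermediate filaments and tubulins, 8 were lower and none was higher (7 and 0 without the block), with a median of -0.16. The list does not hold every keratin, and *KRT4*, described above as higher, is not in it. *VIM*, vimentin, the intermediate filament of mesenchymal cells, lost more CPM than any other gene, at 7505, 6551 and 6533 CPM with vehicle and 4965, 4678 and 4598 CPM with 1,25(OH)2D3 (log2 fold change -0.53 ± 0.04, adjusted p = 3.26e-16). *NES*, nestin, had 45, 34.2 and 27.4 CPM with vehicle and 22.2, 17.9 and 15.6 CPM with 1,25(OH)2D3 (log2 fold change -0.93 ± 0.10, adjusted p = 1.6e-10). *LMNA*, which encodes lamins A and C of the nuclear envelope, fell by 0.48 on the log2 scale and *TUBB3*, a beta-tubulin, by 0.45. The contractile and actin list was divided, with 12 higher and 13 lower of 51 (8 and 5 without the block) and a median of -0.019. *MYOCD*, the myocardin coactivator of smooth muscle genes, had 37.2, 51.8 and 31.6 CPM with vehicle and 77.3, 87 and 58.6 CPM with 1,25(OH)2D3 (log2 fold change 0.89 ± 0.082, adjusted p = 5.64e-13). *ZYX*, zyxin of stress fibres, fell by 0.44 and *SMTN*, smoothelin, by 0.42 on the log2 scale. Smooth muscle actin *ACTA2* overlapped between the groups and did not pass the test (log2 fold change -0.029 ± 0.062, adjusted p = 0.788). Of 16 annexins and S100 proteins, 6 were lower and none was higher (3 and 0 without the block, with 1 higher without the first vehicle library or experiment 1). *ANXA1*, annexin A1, an anti-inflammatory phospholipid-binding protein, had 416, 378 and 358 CPM with vehicle and 299, 263 and 242 CPM with 1,25(OH)2D3 (log2 fold change -0.52 ± 0.05, adjusted p = 1.82e-12). *S100A4*, a calcium-binding marker of fibroblasts, had 960.1, 787 and 791 CPM with vehicle and 866, 725 and 691 CPM with 1,25(OH)2D3. Its groups overlapped and its difference was small (log2 fold change -0.15 ± 0.046, adjusted p = 0.00928), was lost without the block (adjusted p = 0.253), and was lost when the first vehicle library, the second or the third treated library or experiment 2 or 3 was left out.

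Setting aside genes with a mean under 5 CPM, the largest fall in ratio was that of *STC1*, stanniocalcin 1, a secreted regulator of calcium and phosphate. Its level was 459.8 ± 63.6 CPM with vehicle and 143 ± 23.1 CPM with 1,25(OH)2D3 (SD, n = 3), 3.2-fold lower with 1,25(OH)2D3 and without overlap (log2 fold change -1.68 ± 0.10, adjusted p = 1.69e-08). *SLC16A6*, a monocarboxylate transporter, had 162, 153 and 177 CPM with vehicle and 59.6, 51.7 and 51.1 CPM with 1,25(OH)2D3 (log2 fold change -1.59 ± 0.068, adjusted p = 2.17e-26). *DKK1*, a secreted antagonist of Wnt that blocks the LRP co-receptors, had 69, 54.4 and 73.4 CPM with vehicle and 22.5, 19 and 25.4 CPM with 1,25(OH)2D3 (log2 fold change -1.55 ± 0.088, adjusted p = 4.71e-21). In all 3 genes every treated library was below every vehicle library.

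*CXCL10*, an interferon-induced chemokine, had 10.1, 9.6 and 15.8 CPM with vehicle and 3.24, 4.62 and 5.84 CPM with 1,25(OH)2D3 (log2 fold change -1.37 ± 0.19, adjusted p = 3.52e-08). *VEGFC*, the growth factor of lymphatic vessels, had 171, 130.4 and 174 CPM with vehicle and 76.5, 76.8 and 80.1 CPM with 1,25(OH)2D3 (log2 fold change -1.02 ± 0.066, adjusted p = 8.57e-19). *SPRY2*, a feedback inhibitor of receptor tyrosine kinase signalling, had 49.9, 35.8 and 40.6 CPM with vehicle and 20.5, 15.5 and 17.3 CPM with 1,25(OH)2D3 (log2 fold change -1.24 ± 0.10, adjusted p = 3.92e-15). *C21orf7*, now named MAP3K7CL, *PDCD1LG2*, a ligand of the PD-1 receptor, and *SLC7A2*, a transporter of arginine, were also among the 15 largest falls, 2.4-fold, 2.04-fold and 1.99-fold lower.

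Signals that fibroblasts send to the epithelium changed in both directions. In the Wnt pathway, of 21 ligands, receptors and secreted antagonists, 5 were higher and 2 lower (5 and 1 without the block, with 1 lower when the second vehicle library, any treated library or experiment 2 or 3 was left out). *FZD1*, a Wnt receptor, had 85, 92 and 82.5 CPM with vehicle and 184, 188 and 198 CPM with 1,25(OH)2D3 (log2 fold change 1.13 ± 0.062, adjusted p = 1.23e-21). *WNT16*, a Wnt ligand, had 115, 99.5 and 116 CPM with vehicle and 238, 209 and 241 CPM with 1,25(OH)2D3 (log2 fold change 1.06 ± 0.055, adjusted p = 1.13e-22). *FZD4*, another receptor, rose 1.51-fold and *RYK*, a co-receptor, 1.26-fold. Among the called members named here, receptors and a ligand were thus higher and the antagonist *DKK1* lower. Of the 21 tested, 14 were not called, and the median log2 fold change of the list was -0.019. The list of pathway feedback and target genes held 8 higher and 7 lower of 31 (6 and 4 without the block), with a median log2 fold change of 0.052. *LBH*, a transcriptional cofactor known as a Wnt target, had 613, 575 and 483 CPM with vehicle and 1377, 1445 and 1257 CPM with 1,25(OH)2D3 and was among the largest gains in CPM (log2 fold change 1.29 ± 0.047, adjusted p = 8.43e-30). *NKD2*, an inhibitor that acts through Dishevelled, rose 2.15-fold (log2 fold change 1.11 ± 0.12, adjusted p = 1.67e-10). *TCF7L2*, the nuclear partner of β-catenin, rose 1.78-fold (log2 fold change 0.83 ± 0.11, adjusted p = 2.23e-08). *MYC*, a transcription factor of cell growth and known Wnt target, had 19 ± 1.34 CPM with vehicle and 14.8 ± 1.41 CPM with 1,25(OH)2D3 (SD, n = 3). The call of *MYC* (log2 fold change -0.36 ± 0.13, adjusted p = 0.0341) was lost without the block (adjusted p = 0.105) and whenever any library or experiment of the 2 groups was left out. *TNFRSF19*, also a known Wnt target, had 22.1, 24.6 and 15.3 CPM with vehicle and 19, 12.9 and 10.7 CPM with 1,25(OH)2D3, overlapping between the groups. Its call (log2 fold change -0.54 ± 0.13, adjusted p = 0.00135) was lost without the block (adjusted p = 0.134) and without experiment 2.

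In the TGF-β family, *TGFB2*, a ligand, rose most, at 45.6, 41.4 and 44.1 CPM with vehicle and 139, 131 and 116 CPM with 1,25(OH)2D3 (log2 fold change 1.56 ± 0.074, adjusted p = 1.93e-24). *GDF6*, a growth and differentiation factor of the BMP type, had 127, 118 and 126 CPM with vehicle and 223, 242 and 250.5 CPM with 1,25(OH)2D3 (log2 fold change 0.95 ± 0.057, adjusted p = 4.93e-20). *BAMBI*, a decoy receptor, rose 1.6-fold and *SKIL*, a repressor of SMAD factors, 1.43-fold. Of 33 tested ligands, receptors and response genes of TGF-β, 9 were higher and 7 lower (5 and 5 without the block), with a median of -0.0023. The BMP list held 5 higher and 5 lower of 18 (4 and 3 without the block, with 3 lower without the second treated library or experiment 2). Its changed members included secreted antagonists of both signs. *NOG*, noggin, had 6.78, 7.36 and 5.82 CPM with vehicle and 2.39, 3.32 and 3.39 CPM with 1,25(OH)2D3 (log2 fold change -1.14 ± 0.24, adjusted p = 0.000224). *BMPER*, an extracellular modulator of BMP, fell by 0.92 on the log2 scale, whereas *NBL1*, an antagonist of the DAN family, rose 1.68-fold. *RGMB*, a BMP co-receptor, had 381, 322 and 327 CPM with vehicle and 242, 209 and 189.8 CPM with 1,25(OH)2D3 (log2 fold change -0.69 ± 0.051, adjusted p = 2.1e-16). No single direction held for BMP or TGF-β genes.

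Growth factor genes changed in both directions. Of 44 ligands and receptors, 12 were higher and 13 lower (10 and 8 without the block), and without experiment 2 the number lower was 7. *VEGFA*, the main angiogenic factor, had 84.9, 96.5 and 80.0 CPM with vehicle and 309, 356 and 326 CPM with 1,25(OH)2D3. It rose 3.79-fold without overlap (log2 fold change 1.92 ± 0.056, adjusted p = 4.27e-34), while its relative *VEGFC* fell 2.03-fold. *HBEGF*, a ligand of the EGF receptor, had 22.3, 15.5 and 20.3 CPM with vehicle and 12.3, 8.68 and 8.48 CPM with 1,25(OH)2D3 (log2 fold change -0.97 ± 0.14, adjusted p = 2.09e-07), while *EGFR*, the receptor, was 1.59-fold higher at 191, 238 and 276 CPM with vehicle and 347, 377 and 394 CPM with 1,25(OH)2D3. *FGF5*, a fibroblast growth factor, fell by 0.87 on the log2 scale. Of 11 tested insulin-like growth factor binding proteins and partners, 7 were higher and 3 lower (4 and 2 without the block), and the number higher was 3 without experiment 2 and 4 without experiment 3. The number lower was 1 without the third treated library or experiment 3. *IGFBP5*, an abundant binding protein, had 1133, 1025 and 1156 CPM with vehicle and 1735, 1809.7 and 2022 CPM with 1,25(OH)2D3 (log2 fold change 0.75 ± 0.052, adjusted p = 8.45e-16). *PAPPA*, a protease that cleaves such proteins, rose 1.73-fold (log2 fold change 0.79 ± 0.08, adjusted p = 9.13e-12).

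Calls among feedback genes that the MAP kinase pathway is known to switch on were mostly falls. Of 27 tested, 13 were lower and 2 higher, against 11.2% and 13% of all tested genes (9 and 2 without the block), with a median of -0.26. Besides *SPRY2*, *DUSP6*, the phosphatase of ERK, had 145, 139 and 158 CPM with vehicle and 77, 79.4 and 90.3 CPM with 1,25(OH)2D3 (log2 fold change -0.84 ± 0.06, adjusted p = 4.76e-17). *SPRY4*, another Sprouty inhibitor, had 71.8, 59.2 and 76.5 CPM with vehicle and 42.3, 39 and 52.4 CPM with 1,25(OH)2D3 (log2 fold change -0.64 ± 0.078, adjusted p = 2.46e-09). *ETV1*, an ETS factor, fell by 0.72 on the log2 scale (adjusted p = 2.28e-11). In each of these genes the groups did not overlap. *PHLDA2*, which binds phosphoinositides, fell by 0.51. Among 42 RGS proteins and G protein-coupled receptors, 10 were higher and 12 lower (10 and 7 without the block). *RGS2*, which shortens signalling of Gq proteins, had 74.4, 65.1 and 61.4 CPM with vehicle and 207, 227 and 196 CPM with 1,25(OH)2D3 (log2 fold change 1.65 ± 0.064, adjusted p = 2.89e-28). *ADRA1D*, an adrenergic receptor, rose from a few reads (2.6-fold).

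Inflammatory genes did not move in 1 direction. Of 49 chemokines, interleukins and receptors, 14 were higher and 10 lower (8 and 7 without the block), and the number higher was 8 without the third treated library and 9 without experiment 3. *IL1RL1*, the IL-33 receptor, had 3.13, 4.64 and 7.15 CPM with vehicle and 15.4, 14 and 13 CPM with 1,25(OH)2D3, a rise of 2.83-fold (adjusted p = 5.51e-08). *CXCL14*, a chemokine made without inflammatory stimulus in many tissues, had 15.5, 15 and 23 CPM with vehicle and 34.3, 46.5 and 63.5 CPM with 1,25(OH)2D3 (log2 fold change 1.43 ± 0.10, adjusted p = 4.6e-17). The following pair was chosen after its values were seen, since both are central to inflammation: *CCL2*, which attracts monocytes, fell at 199.6, 152 and 145 CPM with vehicle and 99.9, 76.5 and 84.8 CPM with 1,25(OH)2D3 (log2 fold change -0.92 ± 0.064, adjusted p = 9.77e-18). *IL6*, interleukin 6, rose instead, at 65.9, 48 and 55.1 CPM with vehicle and 79.2, 68.5 and 75.9 CPM with 1,25(OH)2D3 (log2 fold change 0.41 ± 0.076, adjusted p = 2.8e-05). In the list for pattern recognition and NF-κB, 10 were lower and 4 higher of 29 (5 and 3 without the block, and 5 or 6 lower when the first vehicle library, the first or second treated library or experiment 1 or 2 was left out). *NFKBIA*, the inhibitor IκBα, had 41, 33.9 and 36.9 CPM with vehicle and 73.4, 77.6 and 69 CPM with 1,25(OH)2D3 (log2 fold change 0.98 ± 0.081, adjusted p = 9.08e-15). *NFKBIZ*, a nuclear IκB protein, had 22.1, 19.8 and 28.3 CPM with vehicle and 12, 11.8 and 13.8 CPM with 1,25(OH)2D3 (log2 fold change -0.90 ± 0.12, adjusted p = 4.91e-08). *RELB*, a subunit of the alternative NF-κB pathway, fell by 0.62 on the log2 scale. The inhibitor and its relative thus moved apart.

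The cyclooxygenase genes moved apart as well. *PTGS1*, the constitutive cyclooxygenase, had 119, 91.5 and 125 CPM with vehicle and 241, 202 and 234 CPM with 1,25(OH)2D3 (log2 fold change 1.02 ± 0.064, adjusted p = 6.87e-19). *PTGS2*, the inducible form, had 17.4, 18.6 and 19.5 CPM with vehicle and 7.34, 5.73 and 10.6 CPM with 1,25(OH)2D3 (log2 fold change -1.23 ± 0.16, adjusted p = 9.22e-09). Of 43 interferon-stimulated genes, 12 were lower and 3 higher, but only 4 and 1 without the block, with a median of -0.11. The number lower was 22 without the second treated library and 19 without experiment 2, and the number higher was 1 without the second vehicle library, experiment 1 or experiment 2. *IFI44L*, an interferon-induced gene, had 64, 122 and 124 CPM with vehicle and 30.9, 88.8 and 73.3 CPM with 1,25(OH)2D3. The groups overlapped although each experiment showed a fall, and the call (log2 fold change -0.70 ± 0.14, adjusted p = 0.00244) was lost without the block (adjusted p = 0.325). *IRF1*, a factor of interferon responses, rose 1.37-fold (log2 fold change 0.46 ± 0.059, adjusted p = 7.98e-09).

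An enzyme of the oxidative pentose phosphate branch and another of glutathione synthesis were among the rises. *PGD*, phosphogluconate dehydrogenase, had 322, 308 and 307 CPM with vehicle and 686, 741 and 622 CPM with 1,25(OH)2D3 (log2 fold change 1.13 ± 0.05, adjusted p = 1.14e-25). *GCLC*, the catalytic subunit that makes the precursor of glutathione, had 70.8, 63.5 and 85 CPM with vehicle and 152, 141 and 156 CPM with 1,25(OH)2D3 (log2 fold change 1.04 ± 0.064, adjusted p = 1.64e-19). For both genes every treated library was above every vehicle library. *TKT*, transketolase of the non-oxidative branch, fell by 0.33 on the log2 scale (adjusted p = 5.27e-07). NRF2 targets and glutathione genes held 12 higher and 5 lower of 36 (9 and 2 without the block, with 3 lower without the first vehicle library or experiment 1 and 2 without the first treated library), with a median of 0.087.

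Calls among glycolysis genes were mostly falls. Of 34 tested, 13 were lower and 3 higher, against 11.2% and 13% of all tested genes (9 and 1 without the block; 1 higher without the second or the third library of either group or experiment 2, and none without experiment 3), with a median of -0.12. *PFKFB4*, which makes the activator of phosphofructokinase, had 107, 93.8 and 94.5 CPM with vehicle and 52.9, 60.4 and 62.4 CPM with 1,25(OH)2D3 (log2 fold change -0.75 ± 0.071, adjusted p = 1.37e-12). *ENO1*, enolase, had 1173, 1090.2 and 1019 CPM with vehicle and 847, 838 and 831 CPM with 1,25(OH)2D3 (log2 fold change -0.38 ± 0.044, adjusted p = 3.75e-10). *SLC2A3*, a glucose transporter, fell by 0.52 on the log2 scale. *GAPDH*, often used for scaling, was 1.11-fold lower (log2 fold change -0.15, adjusted p = 0.00606) with overlapping groups, and its call was lost without the block (adjusted p = 0.191) and without experiment 2 (adjusted p = 0.0957). Hypoxia genes, which share members with glycolysis, held 9 higher and 4 lower of 22 (6 and 1 without the block, with 2 lower without the third treated library or experiment 3 and 1 without experiment 2), with *VEGFA*, *DDIT4*, an inhibitor of mTOR complex 1 (2.21-fold), and *EPAS1*, the factor HIF-2α (1.25-fold), among the higher ones.

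Calls among cholesterol genes were mostly rises. Of 32 tested, 10 were higher and 1 was lower, against 13% and 11.2% of all tested genes (9 and 0 without the block; 2 lower without the first vehicle library, and none without another vehicle library, the first treated library or experiment 2 or 3), with a median of 0.12. *NPC1*, which exports cholesterol from lysosomes, had 191, 216 and 224 CPM with vehicle and 301, 336 and 338 CPM with 1,25(OH)2D3 (log2 fold change 0.63 ± 0.052, adjusted p = 1.44e-14). *INSIG1*, a feedback inhibitor of sterol synthesis, had 87.5, 85.1 and 95.3 CPM with vehicle and 139, 135 and 127 CPM with 1,25(OH)2D3 (log2 fold change 0.58 ± 0.062, adjusted p = 5.21e-11). *ABCA1*, the cholesterol exporter, rose 1.59-fold (log2 fold change 0.67 ± 0.10, adjusted p = 1.22e-06). *SC4MOL*, a synthesis enzyme now named MSMO1, rose 1.28-fold. In the fatty acid and lipid droplet list 11 were higher and 8 lower of 45 (8 and 5 without the block), with 6 higher without experiment 2 and 5 lower without experiment 3. *AGPAT9*, an acyltransferase of triglyceride synthesis now named GPAT3, rose 2.09-fold (log2 fold change 1.06 ± 0.11, adjusted p = 5.42e-11), and *FADS1*, a desaturase, 1.48-fold.

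Genes of protein folding in the endoplasmic reticulum were called mostly lower. Of 32 genes of the unfolded protein response and secretory pathway, 19 were lower and none was higher, against 11.2% and 13% of all tested genes, with a median of -0.16. This was the largest share of lower members among the 48 lists, but without the block the number was 8, a smaller share than in the lists of MAP kinase feedback, intermediate filaments and tubulins, and glycolysis. The changes were small, and the number lower was 11 without the second treated library and 10 without experiment 2. *HSPA5*, the chaperone BiP, had 864, 768 and 939 CPM with vehicle and 552, 499 and 582 CPM with 1,25(OH)2D3 (log2 fold change -0.65 ± 0.046, adjusted p = 1.59e-17). *SDF2L1*, a cofactor of BiP, had 25, 19.8 and 17.8 CPM with vehicle and 12, 12.7 and 14.9 CPM with 1,25(OH)2D3 (log2 fold change -0.66 ± 0.14, adjusted p = 0.000137). *MANF* and *CRELD2*, secreted proteins of the same response, fell by 0.40 and 0.42 on the log2 scale. *CHAC1*, a glutathione-degrading enzyme of the integrated stress response, had 98.3, 91.8 and 109 CPM with vehicle and 48.5, 46.7 and 67.7 CPM with 1,25(OH)2D3 (log2 fold change -0.88 ± 0.075, adjusted p = 2.34e-14). *TRIB3*, a pseudokinase of that response, fell by 0.64. Its list held 5 higher and 12 lower of 41 (4 and 8 without the block, 7 lower without experiment 3).

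Ribosomal protein genes had small changes of 1 sign. All 53 tested had a log2 fold change below 0 (45 to 53 with a library or experiment left out, and 53 under each scaling tried), with a median of -0.14. The median over all tested genes was 0.0016. Of the 53, 17 were called lower, against 11.2% of all tested genes, but only 5 without the block. The number was 7 without the first vehicle library, 27 without the third, 11 without the first treated library, 10 without experiment 1 and 9 without experiment 2. *RPS20*, of the small subunit, had 107, 96.8 and 88.2 CPM with vehicle and 81.8, 77.6 and 68.4 CPM with 1,25(OH)2D3 (log2 fold change -0.36 ± 0.065, adjusted p = 2.43e-05). *RPL24*, of the large subunit, had 90.8, 82.6 and 82.8 CPM with vehicle and 70.5, 69.6 and 70.3 CPM with 1,25(OH)2D3 (log2 fold change -0.28 ± 0.069, adjusted p = 0.00133). Both had groups that did not overlap.

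Few genes of the cell cycle were called. Of 64 tested, 9 were higher and 2 lower, against 13% and 11.2% of all tested genes (2 and 1 without the block). The number higher was 2 to 5 when the second or the third library of either group or experiment 2 or 3 was left out, and the number lower was 1 to 5 over all such fits. *CENPF*, a kinetochore protein, rose 1.27-fold (log2 fold change 0.34 ± 0.07, adjusted p = 0.000137) and *AURKA*, a mitotic kinase, fell by 0.37 on the log2 scale. *MKI67*, the proliferation marker Ki-67, had 144, 167 and 174 CPM with vehicle and 192, 174 and 195 CPM with 1,25(OH)2D3. Its groups overlapped, and its call (log2 fold change 0.21 ± 0.06, adjusted p = 0.00746) was lost without the block (adjusted p = 0.0643), the first library of either group or experiment 1. The larger changes were in a list of cell cycle inhibitors, D cyclins and related genes, called in both directions. Of 25 tested, 5 were higher and 4 lower (3 and 4 without the block), with a median of 0.024. With a library or experiment left out, 3 to 5 were higher and 3 to 5 lower. *CCND1*, cyclin D1, had 2144, 2105 and 2159.9 CPM with vehicle and 1571, 1504 and 1526 CPM with 1,25(OH)2D3 (log2 fold change -0.48 ± 0.042, adjusted p = 5.79e-14). Its kinase *CDK6* had 163, 167 and 198 CPM with vehicle and 124, 115 and 128 CPM with 1,25(OH)2D3 (log2 fold change -0.52 ± 0.06, adjusted p = 3.13e-10). *GADD45B*, a stress-induced regulator, rose 1.56-fold (log2 fold change 0.64 ± 0.07, adjusted p = 7.95e-11).

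**Figure D4:**
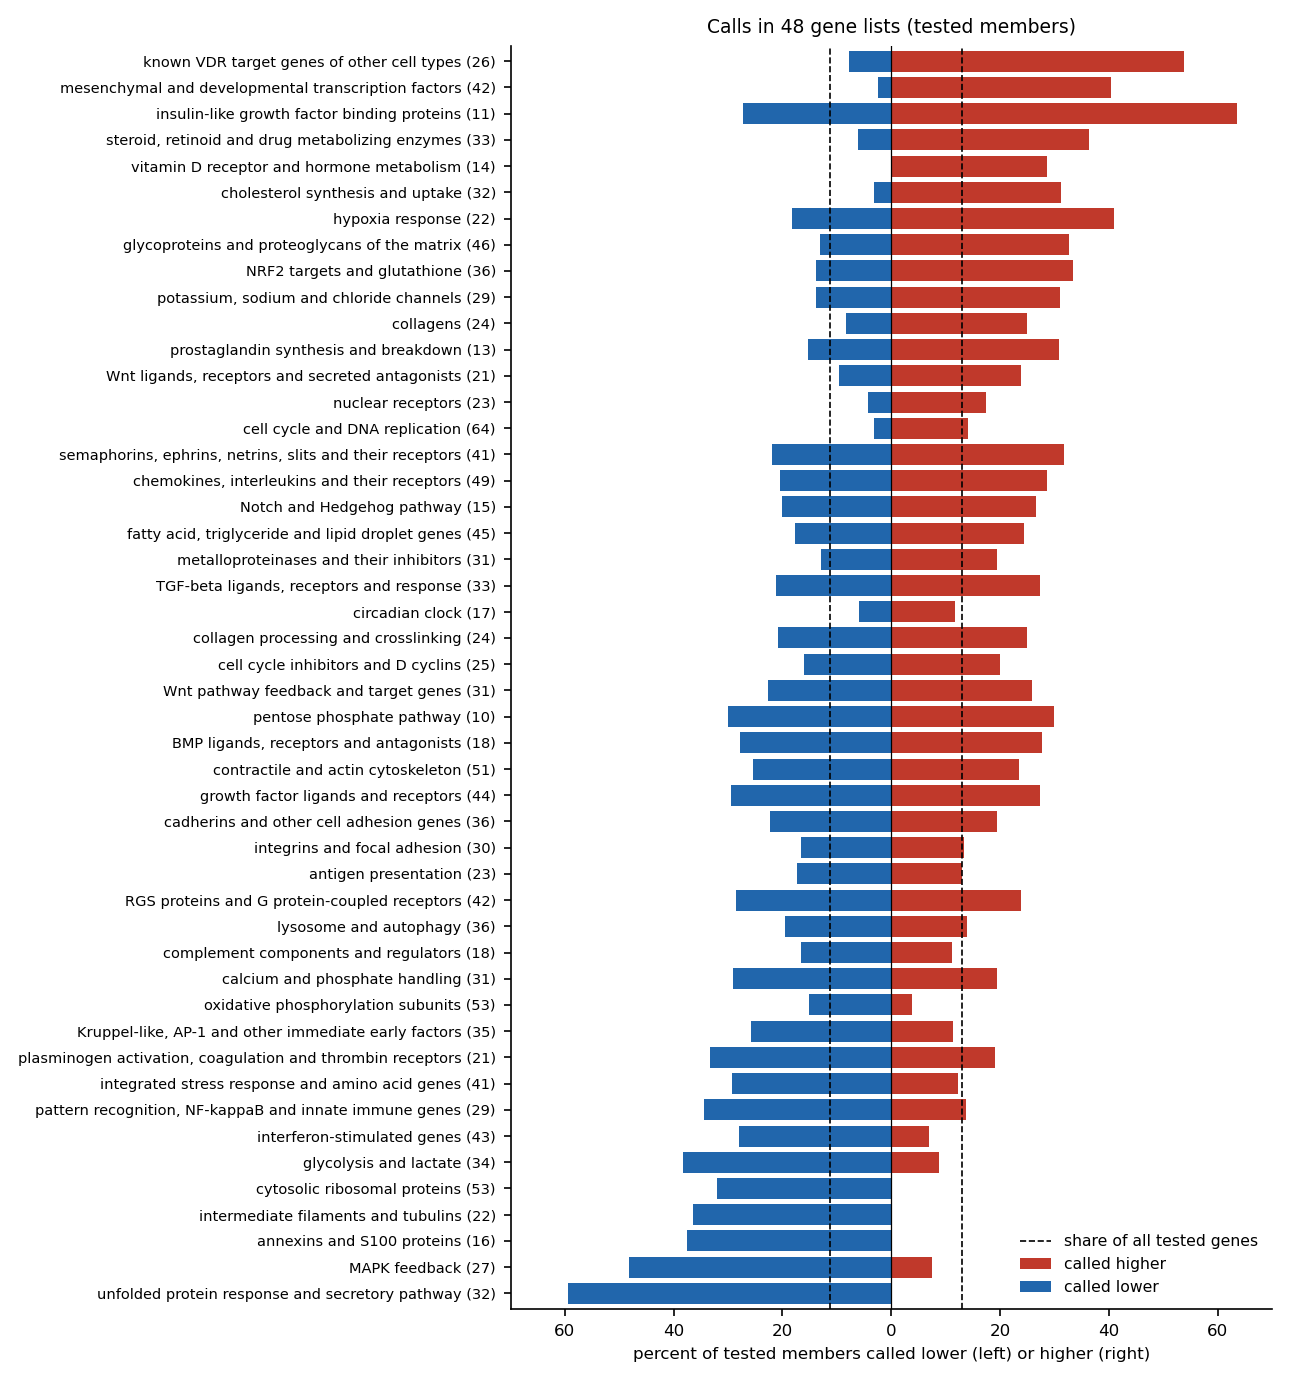
Percent of tested members called lower (blue, to the left) and higher (red, to the right) in 48 gene lists, with the number tested in parentheses and the shares of all tested genes, 11.2% and 13%, as dashed lines. Lists are ordered by the percent called higher minus the percent called lower. Lists such as known VDR targets and mesenchymal transcription factors lie mainly to the right and the unfolded protein response, MAPK feedback and annexins mainly to the left, while many have shares above the lines on both sides.

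Channels and guidance molecules were also among the changed genes. Of 29 potassium, sodium and chloride channels, 9 were higher and 4 lower (8 and 4 without the block; 7 lower without experiment 1 and 2 without experiment 2). *KCNE4*, a subunit that restrains potassium channels, had 2.61, 1.76 and 1.5 CPM with vehicle and 6.66, 8.86 and 7.54 CPM with 1,25(OH)2D3 (log2 fold change 1.97 ± 0.26, adjusted p = 1.96e-08). *ANO1*, a calcium-activated chloride channel, had 15.7, 13 and 21.6 CPM with vehicle and 29.5, 30.7 and 46.5 CPM with 1,25(OH)2D3 (log2 fold change 1.08 ± 0.11, adjusted p = 1.39e-11). Calcium and phosphate genes, the classical field of vitamin D, held 6 higher and 9 lower of 31 (5 and 3 without the block, and 5 lower without the third vehicle library, the third treated library or experiment 3). *ITPR2*, a calcium release channel of the endoplasmic reticulum, had 49.7, 66.9 and 72.2 CPM with vehicle and 125, 159 and 142 CPM with 1,25(OH)2D3 (log2 fold change 1.18 ± 0.067, adjusted p = 3.72e-21). *ALPL*, alkaline phosphatase, rose 1.62-fold (log2 fold change 0.69 ± 0.11, adjusted p = 7.23e-06). Among the lower members, *STIM2*, a calcium sensor of the endoplasmic reticulum, had 85.7, 84.6 and 84.8 CPM with vehicle and 59.2, 59.7 and 69.4 CPM with 1,25(OH)2D3 (log2 fold change -0.44 ± 0.071, adjusted p = 1.76e-06). *CALB2*, the calcium-binding protein calretinin, overlapped between the groups at 14.1, 11.4 and 9.48 CPM with vehicle and 9.73, 10.2 and 5.47 CPM with 1,25(OH)2D3, and its call (log2 fold change -0.46 ± 0.16, adjusted p = 0.0341) was lost without the block (adjusted p = 0.132), the first or the third library of either group or experiment 1 or 3. Of 41 semaphorins, ephrins and related genes, 13 were higher and 9 lower (9 and 6 without the block, with 5 lower without experiment 2). *SEMA3B*, a secreted semaphorin, had 193, 187 and 165 CPM with vehicle and 286, 369.5 and 331 CPM with 1,25(OH)2D3 (log2 fold change 0.85 ± 0.06, adjusted p = 2.32e-16). *EPHA4* and *EPHB2*, ephrin receptors, rose 1.96-fold and 2.5-fold.

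Adhesion genes held 7 higher and 8 lower of 36 (6 and 3 without the block, with 5 lower without experiment 2). *F11R*, the junctional adhesion molecule JAM-A, had 1.39, 1.92 and 2.16 CPM with vehicle and 5.98, 6.65 and 6.78 CPM with 1,25(OH)2D3 (log2 fold change 1.81 ± 0.26, adjusted p = 1.54e-07). *CLDN1*, claudin 1, had 77.6, 55 and 71 CPM with vehicle and 36.9, 29.2 and 41.3 CPM with 1,25(OH)2D3 (log2 fold change -0.92 ± 0.081, adjusted p = 6.52e-14). *CDH11*, the cadherin of fibroblasts, rose 1.59-fold. *CD44*, the hyaluronan receptor and among the most abundant transcripts, had 6286, 6029 and 6757 CPM with vehicle and 5577, 5166 and 5852 CPM with 1,25(OH)2D3 and fell slightly without overlap (log2 fold change -0.20 ± 0.04, adjusted p = 8.91e-05). *SQSTM1*, the autophagy receptor p62, had 1443, 1402 and 1407 CPM with vehicle and 1034, 1184 and 1087 CPM with 1,25(OH)2D3 (log2 fold change -0.36 ± 0.044, adjusted p = 1.72e-09). *DLL4*, a Notch ligand, had 99.1, 83.8 and 94.6 CPM with vehicle and 50.5, 45.4 and 54.3 CPM with 1,25(OH)2D3 (log2 fold change -0.89 ± 0.075, adjusted p = 1.76e-14), and *GLI3*, a Hedgehog factor, rose 1.48-fold.

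The change with 1,25(OH)2D3 was then read a second time in cells that also received Wnt3A, by comparing 3 libraries of both agents with 3 of Wnt3A alone. These are other libraries of the same 3 experiments. There, 2685 genes (22%) were called, 1396 higher and 1289 lower, against 1642 without the block and 1458 without experiment 2. Of the 1594 genes higher with 1,25(OH)2D3 alone, 1003 were also higher with Wnt3A present, which is 62.9% of the former and 71.8% of the latter list, and 1 was lower (*SLC2A1*, a glucose transporter). Of the 1365 lower genes, 833 were lower again, 61% and 64.6% of the lists, and 2 were higher (*SETBP1* and *SASH1*). The sign was the same for 1543 of the 1594 and 1318 of the 1365. Agreement of sign was not counted over all tested genes. *CYP24A1* changed by 9.73 ± 0.16 on the log2 scale in the presence of Wnt3A and by 9.79 without it. *THBD* changed by 3.58 ± 0.11 and 3.42, *CYP26B1* by 3.08 ± 0.071 and 2.95, and *TIMP3* by 2.23 ± 0.045 and 2.18, in the same order. For these 4 genes the test of the difference did not pass the threshold (adjusted p from 0.993 to 1).

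The difference between the changes was called in 18 genes (0.147%), with 708 at an unadjusted p under 0.05. None was called without the block (354 at an unadjusted p under 0.05), and 5 were called by DESeq2 with the block (226 at an unadjusted p under 0.05). The number was 28 without experiment 1 and 7 without experiment 3. It was 0 without experiment 2 (554 at an unadjusted p under 0.05) and 10 without the second library of 1,25(OH)2D3 alone. No single library with Wnt3A was left out. *SLC16A6* fell by 1.59 with 1,25(OH)2D3 alone and by 1.07 with Wnt3A present (adjusted p of the difference = 0.00372). *STC1* fell by 1.68 alone and by 0.92 with Wnt3A (adjusted p of the difference = 0.0431). *LBH* rose by 1.29 alone and by 0.92 with Wnt3A (adjusted p of the difference = 0.00372). *ABCA1* rose by 0.67 alone and by 1.48 with Wnt3A (adjusted p of the difference = 0.00718). On the log2 scale the falls of *SLC16A6* and *STC1* and the rise of *LBH* were thus smaller with Wnt3A present. The rise of *ABCA1* was larger. Mean *STC1* was 459.8 CPM with vehicle, 143 with 1,25(OH)2D3, 847 with Wnt3A and 449 with both agents. Mean *SLC16A6* was 164, 54.1, 235 and 112 CPM in the same order. In CPM the falls of these 2 genes were therefore larger with Wnt3A present. The rise in CPM was smaller for *LBH* and larger for *ABCA1*, as on the log2 scale. *WNT5A*, a Wnt ligand, overlapped between the groups without Wnt3A (log2 fold change -0.052 ± 0.047, adjusted p = 0.466), and its change with Wnt3A was 0.30 (adjusted p of the difference = 0.00502). *TSLP*, an epithelial-type cytokine that acts on dendritic cells, fell by 0.56 alone, at 79.1, 64.8 and 61.9 CPM with vehicle and 53.8, 45.8 and 39.4 CPM with 1,25(OH)2D3, and changed by 0.047 with Wnt3A (adjusted p of the difference = 0.00643).

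**Figure D5:**
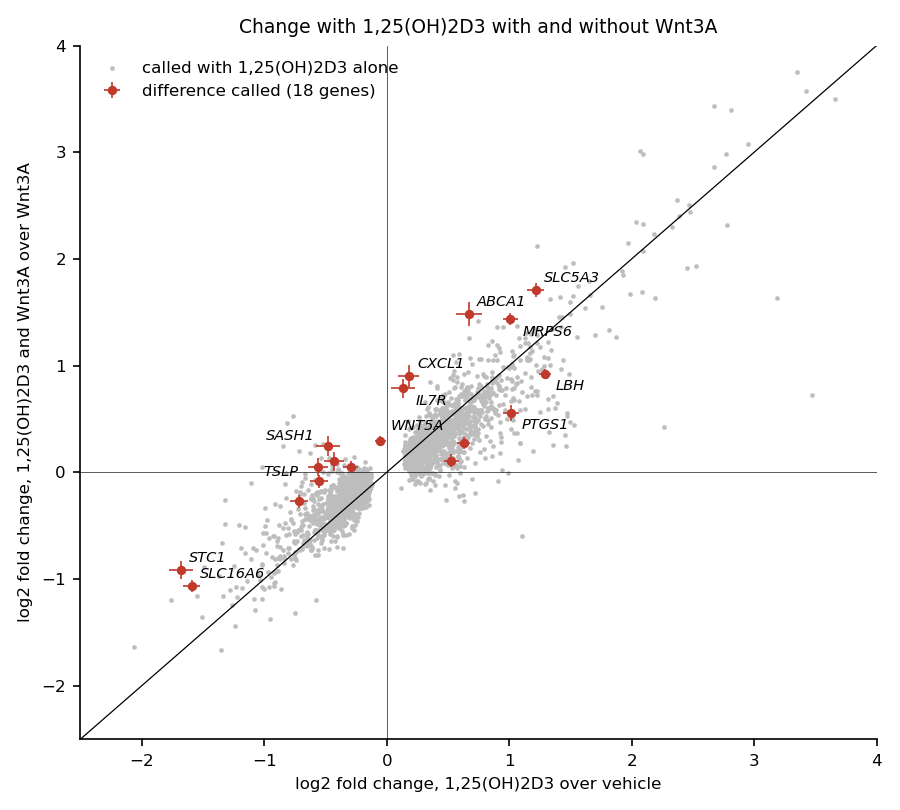
Log2 fold change with 1,25(OH)2D3 in the presence of Wnt3A (vertical axis) against the change without Wnt3A (horizontal axis) for the genes called without Wnt3A (grey) and the 18 genes whose difference was called (red, bars are standard errors); the diagonal marks equal change. Most grey points lie along the diagonal, and *CYP24A1*, *CYP3A4* and *KCNK3* lie outside the plotted range.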

How the data were processed

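RNA was sequenced by the authors as single reads of 40 bases from stranded polyA+ libraries on a Genome Analyzer IIx and aligned with ELAND v2e in CASAVA 1.8 to GRCh37/hg19. Which program and annotation counted the reads, and whether by strand, is not given in the sources used here. What the authors deposited as counts were aligned bases per gene: in each library 78% to 81% of its values up to 400 could be divided by 40 without remainder. The deposited counts were therefore divided by 40 and rounded to whole read equivalents.

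Libraries were grouped by their labels and paired by experiment. The number pairs the libraries by the study's description of 3 repeated experiments. Deviations from the group means over 9477 genes correlated at r = 0.154 to 0.427 in 18 same-numbered pairs and at r = -0.314 to -0.004 in 36 others. The test was the quasi-likelihood F test of edgeR 4.0.16 (R 4.3.3, limma 3.58.1) on all 12 libraries with TMM factors, experiment as a block, a minimum count of 10 (filterByExpr) and a prior count of 0.125, with Benjamini-Hochberg adjustment over 12216 genes and calls at 0.05. The fit pooled the spread of all 4 groups. DESeq2 1.42.0, the package used by the authors, was an alternative (with and without a block), beside other scalings, filters, thresholds and the omission of each library and experiment. Scripts were tested on simulated data. The 6 libraries held 5459627 to 6191675 read equivalents, so genes with a few reads carry wide errors. With the block, p-values measure the spread between cultures of 1 line that remained after differences between experiments were taken out.

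Genes named were those the study names, the 15 largest rises and falls (mean of at least 5 CPM), the 8 largest gains and losses in CPM, genes absent in 1 group, the 8 genes with the smallest p for the difference with and without Wnt3A, and up to 6 changed members of each of 48 gene lists. The largest rises, falls, gains and losses were taken only among called genes with the same direction in all 3 experiments. *CCL2*, *IL6*, *CDKN1A*, *SLC1A1*, *TFPI*, *MYC*, *SLC2A1*, *COL1A2* and *SETBP1* were chosen after their values were seen. The comparison, members and lists were chosen with earlier results of these data known. Where a group had no reads, its sum was taken as 3 reads for the fold, a floor that covers counting error only. A few genes that met the rule are not reported here.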

Additional observations from a re-analysis of the deposited data

Results flagged for a closer look

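The log2 fold change with 1,25(OH)2D3 was compared between cells with and without Wnt3A by the difference of both contrasts in edgeR's quasi-likelihood fit with the experiment as a block. A difference was called in 18 genes, and none of them was called without the block. Given below is the change in the presence of Wnt3A minus the change without it.

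The difference was above 0 in 14 genes. It was 0.81 for *ABCA1* (adjusted p = 0.00718), a gene that was higher in both settings. *STC1* (0.76, adjusted p = 0.0431), *SLC16A6* (0.53, adjusted p = 0.00372) and *ETV1* (0.44, adjusted p = 0.0285) were lower in both settings. On the log2 scale they fell less with Wnt3A present. Among genes of cytokine signalling it was 0.72 for *CXCL1* (adjusted p = 0.00502), 0.65 for *IL7R* (adjusted p = 0.0111) and 0.61 for *TSLP* (adjusted p = 0.00643). *SASH1* differed by 0.73 (adjusted p = 0.00502), *RPS25* by 0.53 (adjusted p = 0.0307), *FAM107B* by 0.47 (adjusted p = 0.0111), *WNT5A* by 0.35 (adjusted p = 0.00502) and *AMIGO2* by 0.35 (adjusted p = 0.0499). *SLC5A3* differed by 0.49 (adjusted p = 0.0111) and *MRPS6* by 0.42 (adjusted p = 0.00865). *SLC5A3*, a transporter of inositol, lies within the coordinates of *MRPS6*, so their reads may not be separable.

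The difference was below 0 in 4 genes, which were higher with 1,25(OH)2D3 alone and changed less on the log2 scale with Wnt3A present. It was -0.46 for *PTGS1* (adjusted p = 0.026), -0.42 for *FAM38B*, now named PIEZO2 (adjusted p = 0.0234), -0.37 for *LBH* (adjusted p = 0.00372) and -0.35 for *NPC1* (adjusted p = 0.026).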

How the results depend on the processing

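All 2959 genes kept the sign of their change in every alternative that gave them a value, but the number past the threshold depended on the test. Against 2959 called genes (1594 higher and 1365 lower), the fit without the replicate block called 1791 (1043 and 748). On the 6 libraries of the comparison alone the count without the block was 1345 (788 and 557), and DESeq2 called 1620 with the block (870 and 750) and 939 without it on 6 libraries (581 and 358). An adjusted p under 0.01 left 1897 (826 lower), and a test against a fold of 1.2 left 682 (482 and 200). With a library or an experiment left out, 1822 to 2821 genes were called, 1003 to 1444 higher and 819 to 1377 lower. In the presence of Wnt3A the count of 2685 became 1642 without the block and 1466 with DESeq2. It became 1747 at an adjusted p under 0.01 and 596 against a fold of 1.2. With an experiment left out it was 1458 to 2492. With a vehicle or 1,25(OH)2D3 library left out, none of them part of this contrast, it was 2587 to 2990. Single libraries with Wnt3A were not left out. For the difference with and without Wnt3A, 18 became 0 without the block, 5 with DESeq2 and 8 at an adjusted p under 0.01. It became 0 against a fold of 1.2 (179 at an unadjusted p under 0.05). The count was 0 to 28 with an experiment left out and 10 to 27 with a vehicle or 1,25(OH)2D3 library left out. The cause was not tested. Of 298 called genes named by rule, 225 stayed called whichever vehicle or 1,25(OH)2D3 library or experiment was left out. Other scalings moved the median log2 fold change of all genes from 0.0016 to -0.0049 and -0.018, and the share of higher genes among the called from 53.9% to 47.6% with upper-quartile factors. At this depth, changes of genes with a few reads had wide errors.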
